A study of Mus musculus with 3 samples.

Results

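Sox4, Lef1, Tcf7, Satb1, Myb, Bach2 and Itm2a are 7 genes of immature and naive T cells, chosen by name and found by symbol among the 30406 gene identifiers that 3 thymic iNKT cell libraries share. Sox4 encodes an SRY-related HMG box factor, Lef1 and Tcf7 encode the HMG box factors LEF-1 and TCF-1 that act with beta-catenin, and Satb1 encodes a chromatin organizer of thymocytes. Myb encodes a factor needed for thymocyte survival and for iNKT cell development, Bach2 encodes a repressor that partners with small MAF proteins and restrains effector programs, and Itm2a encodes a membrane protein induced in thymocytes during positive selection. Invariant NKT (iNKT) cells arise from CD4+CD8+ thymocytes, which pass through a precursor stage and then become NKT1, NKT2 or NKT17 cells, marked by T-bet, by IL-4 and by RORγt.

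The cells were thymic TCRβ+CD1d-tet+CD24-NK1.1- lymphocytes, taken after depletion of CD8+ cells and captured as 1 droplet library per condition. C57BL/6 mice without BMT (titled WT) were 7 weeks old by the labels, while the study's methods give another age. BM only (Non-GVHD) and BM + Spl (GVHD) mice were 16 weeks old, 9 weeks after BMT, and both were F1 hybrids of C57BL/6 and BALB/c mice that received a lethal dose of irradiation and then C57BL/6 bone marrow depleted of T cells, with C57BL/6 splenic cells added in BM + Spl. Thymi of several mice were pooled per library, so no value has a replicate check and no test between conditions could be run. Mature T cells carried over with the splenic graft and T cells made from marrow cannot be told apart in these counts. Intervals in parentheses are 95% intervals and cover counting error only.

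Cells with more than 200 but fewer than 6000 detected genes were kept where less than 10% of their UMIs (unique molecular identifiers, each standing for a captured transcript) were mitochondrial. This left 4434 of 4613 cells in C57BL/6, 5970 of 5986 in BM only and 5557 of 5573 in BM + Spl, with medians of 12086.5, 4740 and 6495 UMIs per cell. Levels are CPM, the UMIs of a gene summed over the cells of a group and scaled to 1000000 UMIs of that group. A gene was counted as past 1.5-fold only where both sides of a comparison together held at least 50 UMIs. The matrix headers name Cell Ranger 3.0.2 for C57BL/6 and 7.0.0 for both BMT libraries, and the UMIs of T cell receptor V segments stood at 54.8 CPM in C57BL/6 against 1749 and 2028 CPM in BM only and BM + Spl. Condition, software and any difference in kit can therefore not be told apart between C57BL/6 and the BMT libraries, whose levels are given side by side and not compared. Between BM only and BM + Spl 43 cell barcodes were shared. The summed level of the dissociation genes Fos, Jun, Fosb, Hspa1a and Hspa1b was 110 CPM in C57BL/6, 2357 CPM in BM only and 1067 CPM in BM + Spl, and its part in the results was not tested.

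Cells were placed in exclusive gates by marker UMIs. The NKT1 gate needed at least 3 of 12 NKT1 genes, the NKT17 gate at least 2 of 8 NKT17 genes, the NKT2 gate Zbtb16 with Il17rb, Il4, Il13 or Pdcd1, and the Ccr7+ precursor gate Ccr7 with Zbtb16 and no Il4 or Il13, and no member served as a marker. In the order C57BL/6, BM only and BM + Spl there were 360, 226 and 412 Ccr7+ precursor cells, 909, 454 and 775 NKT2 cells, 1272, 2672 and 867 NKT1 cells, 328, 547 and 435 NKT17 cells, and 74, 288 and 477 Cd8b1+ cells. The gates fitted their names unevenly. Among NKT1 gate cells with a called V beta, 92.3% in BM only but 44.1% in BM + Spl used an iNKT V beta segment, and the BM + Spl gate held 231 CPM of Cd4 and 167 CPM of Ccr7 against 37.1 and 18.9 CPM in BM only. The NKT17 gate behaved alike, with 66.4% against 39.8% iNKT V beta. In C57BL/6 the Cd8b1+ cells held 4.58 CPM of Cd8a and 272 CPM of Zbtb16, the iNKT lineage factor, which goes against a CD8 T cell, whereas Cd8a stood at 445 and 739 CPM in the Cd8b1+ cells of BM only and BM + Spl.

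The genes lie on 7 chromosomes of the mouse (GENCODE vM21, GRCm38). Sox4 (ENSMUSG00000076431) spans chr13:28948919-28953713 on the minus strand, Lef1 (ENSMUSG00000027985) chr3:131110471-131224356 on the plus strand, Tcf7 (ENSMUSG00000000782) chr11:52252371-52283014 on the minus strand and Satb1 (ENSMUSG00000023927) chr17:51736187-51833290 on the minus strand. Myb (ENSMUSG00000019982) spans chr10:21124935-21160984 and Itm2a (ENSMUSG00000031239) chrX:107397099-107403376, both on the minus strand, and Bach2 (ENSMUSG00000040270) spans chr4:32238804-32586108 on the plus strand. Bach2 is the longest at 347 kb, and its level of 10.7 CPM (9.86 to 11.6) over all C57BL/6 cells stood beside 46.2 CPM (43.9 to 48.5) in BM only and 50.4 CPM (48.3 to 52.6) in BM + Spl. Antisense genes overlapping Lef1, Tcf7, Myb and Bach2 were counted as well, and how strand was handled in the counting is not given in the sources used here, so reads of these pairs may not be cleanly separated.

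The 250 bases before a RefSeq start site (GRCm38.p6) are shown for 2 genes that were lower and 2 that were higher in NKT1 than in NKT2 gate cells. They are Sox4 (chr13:28953700-28953949, minus strand), Lef1 (chr3:131110073-131110322, plus strand), Bach2 (chr4:32417185-32417434, plus strand, a start inside the GENCODE gene) and Itm2a (chrX:107403361-107403610, minus strand). Capitals mark CTTTGA, the core bound by TCF and LEF factors, CCGGAA, an ETS core, and CAGCTG, an E box, searched on both strands, and TGTGGT, a RUNX core, was searched as well.
Sox4: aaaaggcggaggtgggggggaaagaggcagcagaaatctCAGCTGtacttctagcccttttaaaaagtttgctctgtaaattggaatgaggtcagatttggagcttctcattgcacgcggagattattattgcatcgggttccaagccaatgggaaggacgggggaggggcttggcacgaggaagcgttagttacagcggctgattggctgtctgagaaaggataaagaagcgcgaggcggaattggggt
Lef1: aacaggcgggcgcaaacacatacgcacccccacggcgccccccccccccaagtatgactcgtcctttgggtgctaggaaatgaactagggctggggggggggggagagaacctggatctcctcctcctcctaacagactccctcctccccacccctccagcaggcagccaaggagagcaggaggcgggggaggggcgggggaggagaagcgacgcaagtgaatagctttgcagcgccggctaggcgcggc
Bach2: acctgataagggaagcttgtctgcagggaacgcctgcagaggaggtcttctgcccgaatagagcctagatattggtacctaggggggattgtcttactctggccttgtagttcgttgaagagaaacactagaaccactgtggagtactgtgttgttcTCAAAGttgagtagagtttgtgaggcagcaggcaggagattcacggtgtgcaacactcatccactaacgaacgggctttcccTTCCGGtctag
Itm2a: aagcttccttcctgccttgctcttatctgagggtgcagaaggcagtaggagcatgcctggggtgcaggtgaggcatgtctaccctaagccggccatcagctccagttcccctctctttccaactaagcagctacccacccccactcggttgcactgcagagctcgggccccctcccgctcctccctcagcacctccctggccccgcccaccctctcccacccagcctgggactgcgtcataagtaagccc
CTTTGA, which no other searched motif overlapped here, was found in Bach2 alone of the 7 genes, against 13.8% of all 32851 listed promoters. CCGGAA was also found in Bach2 only (12.03% of all promoters), CAGCTG in Sox4 and Tcf7 (13.001%) and TGTGGT in none (14.0%). Tcf7 has 2 listed starts, and in the window used its CAGCTG follows an ATG in the same reading frame. That site may therefore be coding sequence from another start and not promoter, which was not tested. The hits lie 93 to 88 bases before the start in Bach2 for CTTTGA, 11 to 6 bases before it for CCGGAA, and 211 to 206 bases before the start of Sox4 for CAGCTG, inside the windows printed above.

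The levels in NKT2 and NKT1 gate cells divided the genes into those that were lower and those that were higher in NKT1 cells. This contrast compares subsets and does not follow cells through differentiation. Sox4, Lef1 and Myb were lower past 1.5-fold in all 3 libraries and Tcf7 and Satb1 each in 2 of 3, while Bach2 was higher in all 3 and Itm2a in 2 of 3. Of the 7 genes 6 passed 1.5-fold in each library, where 21.9% of tested genes did in C57BL/6, 31.4% in BM only and 28.3% in BM + Spl. With NKT1 cells limited to those with an iNKT V beta, which left 128 cells in C57BL/6, 4, 6 and 7 of the 7 genes passed, against 22.9%, 30.8% and 22.8% of tested genes. In C57BL/6 Sox4 was then at -0.67 (-1.09 to -0.28) on the log2 scale, and Myb at -0.54 (-0.93 to -0.17) and Bach2 at 0.14 (-0.81 to 0.96) no longer passed.

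Sox4 stood at 75.8 CPM (71.1 to 80.6) in NKT2 and 16.4 CPM (13.9 to 19.1) in NKT1 cells of C57BL/6. In BM only it stood at 59.3 CPM (52.0 to 67.3) and 4.34 CPM (3.25 to 5.68), and in BM + Spl at 56.5 CPM (51.3 to 62.1) and 11.6 CPM (8.77 to 15.0). NKT1 was thus the low side each time, with no overlap of intervals, at log2 ratios of -2.21 (-2.46 to -1.97), -3.77 (-4.23 to -3.34) and -2.29 (-2.71 to -1.89). In BM only and BM + Spl the NKT1 side of Sox4 and Myb overlapped the intervals of B cells, which in BM only were 3.19 CPM (0.386 to 11.5) and 4.78 CPM (0.986 to 14.0). In pDC of BM only both genes were higher, at 31.8 and 24.6 CPM, so cells that are not T cells do not give a common background level. Ratios with so low a side do not give the size of a difference in expression. Myb stood at 77.7 CPM (73.1 to 82.7) and 44.9 CPM (40.8 to 49.2) in C57BL/6, at 43.0 CPM (36.9 to 49.9) and 4.67 CPM (3.54 to 6.05) in BM only, and at 50.04 CPM (45.2 to 55.3) and 17.5 CPM (14.0 to 21.6) in BM + Spl. The C57BL/6 difference in Myb, -0.79 (-0.96 to -0.63) on the log2 scale, moved with the gate. Counting markers after every cell had been thinned to 2700 UMIs, so that the deeper C57BL/6 cells did not reach 3 markers more easily, gave -1.88.

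Lef1 stood at 364 CPM (354 to 374) in NKT2 and 112 CPM (106 to 119) in NKT1 cells of C57BL/6, at 619 CPM (595 to 643) and 93.7 CPM (88.3 to 99.2) in BM only, and at 547 CPM (530 to 563) and 135 CPM (125 to 146) in BM + Spl. NKT1 was the low side by -1.69, -2.72 and -2.02 on the log2 scale. Tcf7 stood at 224 CPM (216 to 232) and 90.9 CPM (85.1 to 97.0) in C57BL/6, at 336 CPM (319 to 355) and 144 CPM (137 to 151) in BM only, and at 281 CPM (269 to 293) and 224 CPM (211 to 238) in BM + Spl, for log2 ratios of -1.30, -1.22 and -0.33. The BM + Spl value was within 1.5-fold, and with both gates limited to cells with an iNKT V beta it was -0.66. Satb1 differed little in C57BL/6, at 569 CPM in NKT2 and 519 CPM in NKT1 cells, or -0.13 (-0.18 to -0.08). It was lower past 1.5-fold in the NKT1 cells of BM only, 398 against 264 CPM or -0.59 (-0.68 to -0.50), a value next to the 1.5-fold line, and of BM + Spl, 353 against 166 CPM or -1.09 (-1.20 to -0.98).

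Bach2 and Itm2a went the other way. Bach2 stood at 10.0 CPM (8.38 to 11.9) in NKT2 and 15.7 CPM (13.3 to 18.3) in NKT1 cells of C57BL/6, at 29.0 CPM (24.0 to 34.8) and 58.8 CPM (54.6 to 63.3) in BM only, and at 22.0 CPM (18.8 to 25.5) and 79.6 CPM (71.9 to 87.9) in BM + Spl. NKT1 was the high side in every library, at log2 ratios of 0.64 (0.30 to 0.99), 1.02 (0.74 to 1.31) and 1.86 (1.59 to 2.13). The NKT2 side of Bach2 lay within the intervals of myeloid cells, at 32.9 CPM (18.0 to 55.2) in BM only and 27.2 CPM (13.6 to 48.7) in BM + Spl. In C57BL/6 both sides were low. These ratios, and other Bach2 ratios with a side at such levels, therefore do not give the size of a difference in expression. Itm2a, too, was higher in NKT1 cells, at 71.6 CPM (66.5 to 77.03) against 25.3 CPM (22.7 to 28.2) in C57BL/6 and 70.9 CPM (63.6 to 78.7) against 40.7 CPM (36.4 to 45.5) in BM + Spl, at 1.499 and 0.80 on the log2 scale. In BM only it stood at 61.5 CPM (54.1 to 69.6) and 83.0 CPM (78.0 to 88.3), within 1.5-fold.

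**Figure D1:**
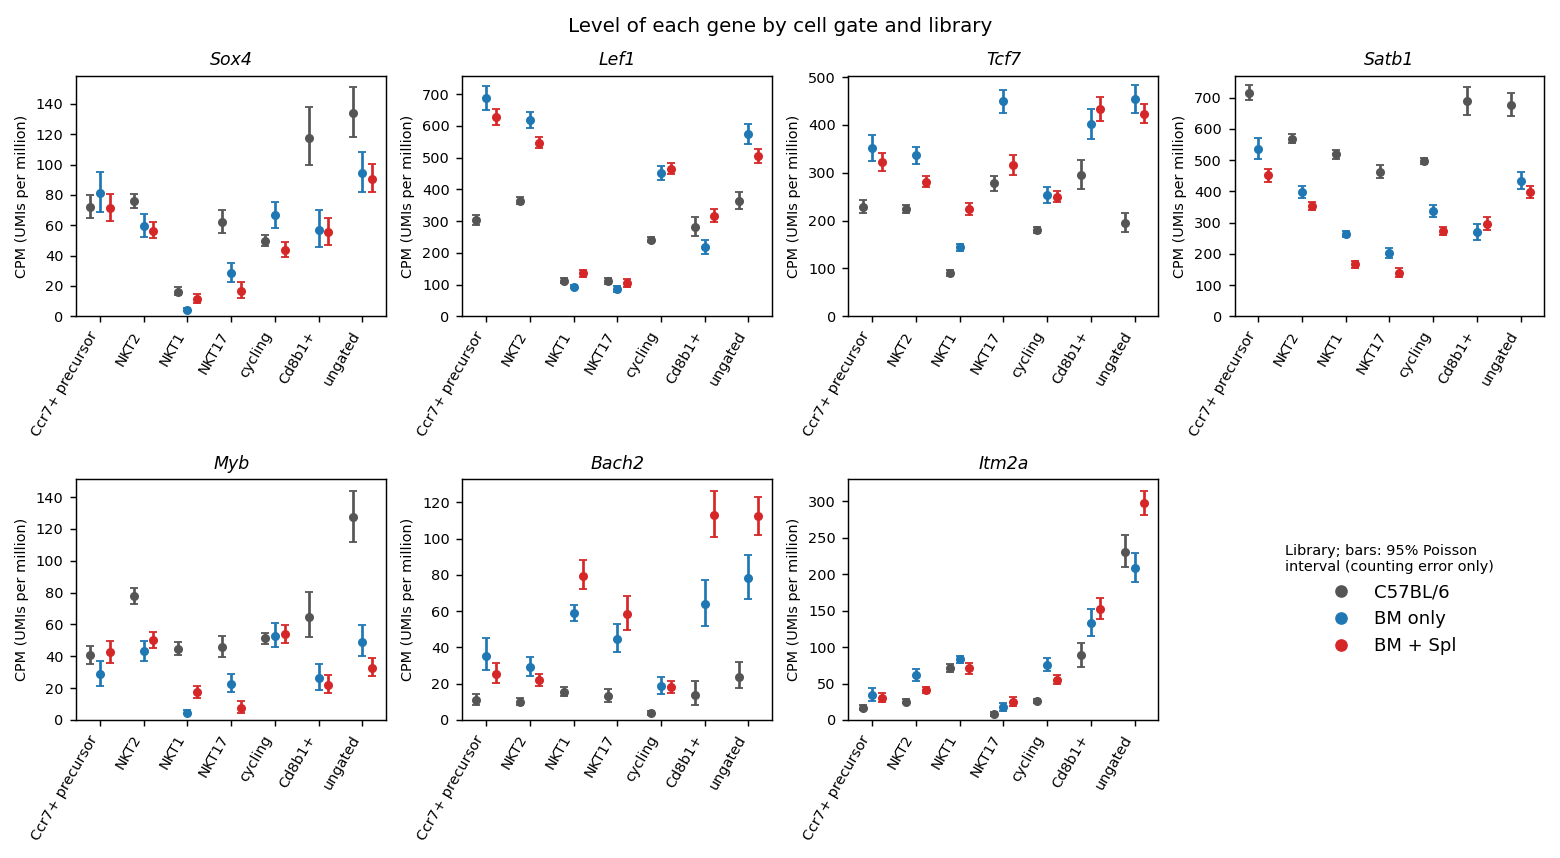
CPM of each gene (vertical axis, from 0) in 7 cell gates (horizontal axis), coloured by library, with 95% Poisson intervals as bars. Sox4 and Lef1 sit low in the NKT1 gate of all 3 libraries, Tcf7 sits high in the NKT17 gate, and Itm2a sits highest in ungated cells.

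Over the gates of each library the order of levels differed by gene. Sox4 was highest in ungated cells of all 3 libraries, at 134, 94.3 and 90.7 CPM in C57BL/6, BM only and BM + Spl, with intervals overlapping those of the next gate in C57BL/6 and BM only. Lef1 and Satb1 were highest in Ccr7+ precursor cells of both BMT libraries, at 687 and 627 CPM of Lef1 and 535 and 451 CPM of Satb1 in BM only and BM + Spl, above the next gate without overlap, and Satb1 was highest there in C57BL/6 too, at 715 CPM with overlap of Cd8b1+ cells at 689 CPM. Tcf7 was highest in Cd8b1+ cells of C57BL/6 at 295 CPM and of BM + Spl at 433 CPM, and in ungated cells of BM only at 453 CPM, each overlapping the next gate. Myb was highest in cycling cells of the BMT libraries at 53.0 and 53.9 CPM, not apart from NKT2 cells, and Bach2 was lowest in cycling cells of all 3 libraries at 3.70, 18.5 and 17.98 CPM. B cells of BM only held Bach2, also a B cell regulator, at 87.6 CPM (66.01 to 114). In thinned NKT2 cells a mean of 1.97, 2.21 and 2.06 of the 7 genes had a UMI, and in NKT1 cells 1.33, 1.23 and 1.20 genes, with 17.5%, 24.0% and 26.3% of NKT1 cells holding none.

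Along the number of NKT1 genes with a UMI, counted in thinned cells of the Ccr7+ precursor, NKT2, intermediate (Il17rb and Cxcr3), NKT1 and ungated gates, the genes parted at different steps. Lef1 was lower at each step in every library, going from 320 to 53.8 CPM in C57BL/6, from 614 to 69.5 CPM in BM only and from 579 to 72.8 CPM in BM + Spl between 0 and 5 or more NKT1 genes. Sox4 was lower between 1 and 2 NKT1 genes, going from 60.6 CPM (55.6 to 66.0) to 20.2 CPM (15.6 to 25.7) in C57BL/6 and from 59.7 CPM (52.4 to 67.8) to 15.5 CPM (10.2 to 22.6) in BM + Spl. Myb differed by library. In C57BL/6 cells it stood at 69.3 CPM (65.5 to 73.3) with no NKT1 gene, 86.9 CPM (76.97 to 97.6) with 2, 38.8 CPM (32.9 to 45.4) with 3 to 4 and 4.61 CPM (2.58 to 7.61) with 5 or more, so the cells with 2 NKT1 genes held less Sox4 and more Myb than cells with none. In BM + Spl Myb was already lower at 2 NKT1 genes, with 28.7 CPM (21.3 to 37.8) against 44.5 CPM (40.7 to 48.6) at none, and in BM only it stood at 27.3 CPM (17.5 to 40.6) against 38.5 CPM (33.4 to 44.1), with overlap. Bach2 went the other way over the same range, from 11.2 CPM (9.66 to 12.8) to 19.98 CPM (15.4 to 25.5) in C57BL/6, from 31.6 to 56.4 CPM in BM only and from 35.5 to 88.5 CPM in BM + Spl.

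Tcf7 went from 226 to 48.9 CPM in C57BL/6 and from 353 to 127 CPM in BM only, whereas in BM + Spl it stood at 220 CPM (198 to 243) with 2, 222 CPM (202 to 243) with 3 to 4 and 212 CPM (185 to 243) with 5 or more NKT1 genes. In BM + Spl cells with a Zbtb16 UMI or an iNKT V beta, Tcf7 stood at 222 CPM (194 to 253) with 2, 179 CPM (153 to 210) with 3 to 4 and 125 CPM (93.5 to 164) with 5 or more NKT1 genes, the last below the 212 CPM of all cells in that bin without overlap and beside 127 CPM (119 to 136) in the same cells of BM only. Itm2a had a peak of 153 CPM (129 to 182) at 2 NKT1 genes in BM only that the other 2 libraries, at 63.9 and 66.0 CPM, did not show.

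**Figure D2:**
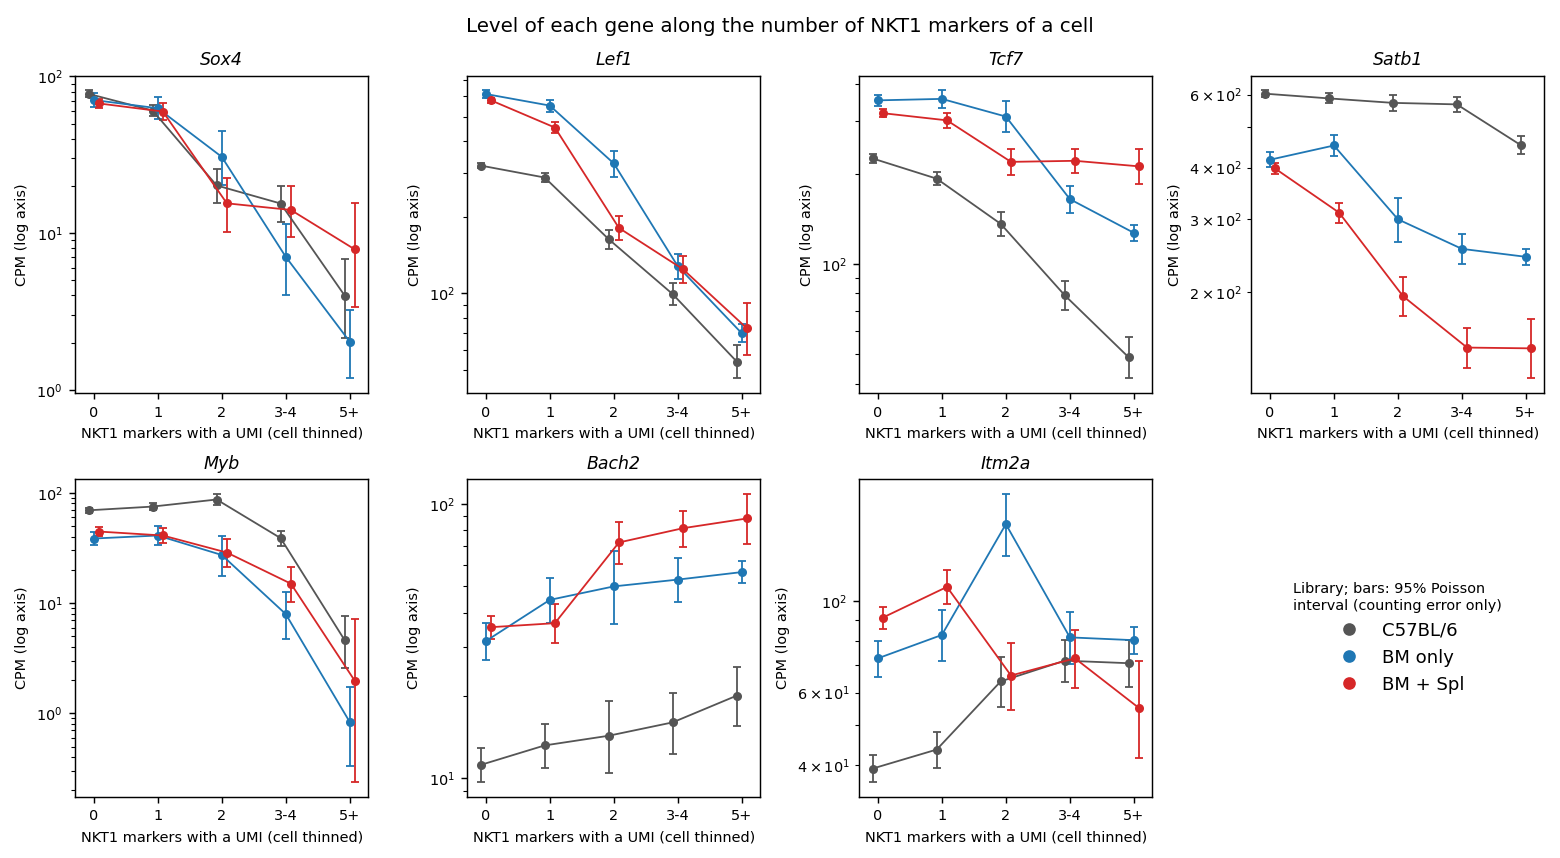
CPM of each gene (vertical log axis) against the number of NKT1 genes with a UMI in cells thinned to 2700 UMIs (horizontal axis), by library, with 95% Poisson intervals as bars. Lef1 is lower at each step in every library, Myb in C57BL/6 is still 86.9 CPM at 2 NKT1 genes, and Tcf7 in BM + Spl stays at 212 to 222 CPM from 2 genes on.

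In NKT17 gate cells Lef1 and Tcf7, which are often redundant in thymocytes, parted. Lef1 stood at 111 CPM (101 to 121), 85.6 CPM (75.5 to 96.7) and 104 CPM (91.6 to 117) in C57BL/6, BM only and BM + Spl, at log2 ratios to NKT2 cells of -1.72, -2.85 and -2.40. Tcf7 stood at 278 CPM (262 to 294), 449 CPM (425 to 474) and 316 CPM (295 to 338), at ratios of 0.31, 0.42 and 0.17, each interval above 0 and within 1.5-fold. Itm2a was lower than in NKT2 cells, at 7.62 CPM (5.21 to 10.8), 17.3 CPM (12.9 to 22.6) and 24.8 CPM (19.1 to 31.6), where ratios were -1.73, -1.83 and -0.72. Past 1.5-fold were 3 of 7 genes in C57BL/6 (14.8% of tested genes) and 6 of 7 in BM only (25.2%) and BM + Spl (29%). In both BMT libraries all genes but Tcf7 passed. Of these, Sox4, Myb, Bach2 and Itm2a had a side at low levels that overlapped cells other than T cells, which leaves Lef1 and Satb1. At equal depth 3.32% and 4.14% of NKT17 cells of BM only and BM + Spl held an Itm2a UMI, beside 2.47% (0.3004 to 8.64) and 3.08% (0.375 to 10.7) of B cells. In CPM the NKT17 cells also overlapped B cells, at 7.97 CPM (2.59 to 18.6) and 22.2 CPM (12.1 to 37.2). Those of BM + Spl stood above myeloid cells, at 4.95 CPM (0.600 to 17.9), without overlap. The wide intervals do not settle whether Itm2a was at background in these NKT17 cells. Its ratios there were not read as the size of a difference in expression.

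Against NKT1 cells, NKT17 cells held more Tcf7 at 1.61 and 1.64 in C57BL/6 and BM only and at 0.50 in BM + Spl, within 1.5-fold there. They held less Itm2a, at -3.23 in C57BL/6 and, with the low NKT17 levels just given, at -2.27 and -1.52 in BM only and BM + Spl. Of the 7 genes 3, 4 and 2 passed in these libraries, against 18.6%, 20.6% and 9.24% of tested genes.

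Ccr7+ precursor cells, the gate of cells held to be the source of the subsets and of emigrants, differed from NKT2 cells past 1.5-fold in few of the genes. In C57BL/6 and BM only 2 of 7 genes passed 1.5-fold, against 4.49% and 6.37% of tested genes, and in BM + Spl 0 of 7, against 4.69%. Myb was lower, at 40.8 CPM (35.4 to 46.8) in precursor cells against 77.7 CPM (73.1 to 82.7) in NKT2 cells of C57BL/6 and 28.6 CPM (21.5 to 37.3) against 43.0 CPM (36.9 to 49.9) in BM only, at log2 ratios of -0.93 and -0.59. Satb1 was higher within 1.5-fold, at 0.33 (0.27 to 0.39), 0.43 (0.31 to 0.54) and 0.35 (0.26 to 0.44) in C57BL/6, BM only and BM + Spl. Itm2a was also lower, at -0.60 in C57BL/6 and -0.84 in BM only, but with the stricter gates, which ask for more marker UMIs, the C57BL/6 value was 0.06.

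BM + Spl was set against BM only to ask how GvHD goes with the level of each gene. Over all filtered cells 0 of 7 genes passed 1.5-fold, against 15.1% of tested genes, no test being possible with 1 library each. Myb stood at 22.9 CPM (21.3 to 24.5) in BM only and 34.0 CPM (32.3 to 35.8) in BM + Spl, at 0.57 (0.44 to 0.70), and Lef1 at 255 CPM (250 to 261) and 335 CPM (330 to 341), at 0.39 (0.36 to 0.43). These sums mix gates in different shares, since NKT1 gate cells, which hold less of both, were 44.8% of BM only and 15.6% of BM + Spl cells. Within the Ccr7+ precursor gate 0 of 7 passed, against 6.52% of tested genes, with Myb at 0.57 (0.12 to 1.04) and Bach2 at -0.47 next in size. Within the NKT2 gate 1 of 7 passed, against 4.15% of tested genes, and it was Itm2a at -0.59 (-0.84 to -0.35), from 61.5 to 40.7 CPM. With the stricter gates that ratio was 0.05. The other 6 genes lay between -0.40 and 0.22 in the NKT2 gate, with Sox4 at -0.07 (-0.30 to 0.16).

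In the NKT1 gate 4 of 7 genes passed, against 21.9% of tested genes. Sox4 and Myb are in this count, though no difference was read from them below, which leaves Tcf7 and Satb1. Tcf7 was higher in BM + Spl at 0.64 (0.53 to 0.75), and Satb1 was lower at -0.67 (-0.78 to -0.56), from 264 CPM (255 to 273) to 166 CPM (155 to 178). Sox4 at 1.41 (0.85 to 1.98) and Myb at 1.90 (1.40 to 2.41) were higher, from the low levels given above. At equal depth 0.661% of BM only NKT1 cells held a Sox4 UMI and 0.617% a Myb UMI, beside 0% (0 to 4.45) and 1.23% (0.0313 to 6.69) of B cells and 4.88% (0.596 to 16.5) and 0% (0 to 8.60) of myeloid cells in the same library. In BM + Spl these shares were 2.01% and 3.76% of NKT1 cells, beside 0% (0 to 5.52) and 1.54% (0.0389 to 8.28) of B cells and 0% (0 to 10.9) and 3.12% (0.0791 to 16.2) of myeloid cells. Median depths before thinning were 4339 and 4731 UMIs in NKT1 cells, 6340.5 and 8389.5 in B cells and 10052 and 10527 in myeloid cells. By these shares Sox4 and Myb in NKT1 cells of the BMT libraries thus lay within the wide counting intervals of B cells and myeloid cells, so neither expression nor a difference was read from them. Of NKT2 cells, 14.2% and 13.01% held a Sox4 UMI and 12.4% and 10.8% a Myb UMI.

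The makeup of the NKT1 gate differed between the libraries in V beta use and in the number of NKT1 genes per cell. Their part in these differences was not tested. Among cells with an iNKT V beta, Satb1 stood at 263 CPM (253 to 274) in BM only and 210 CPM (191 to 231) in BM + Spl, at -0.32 (-0.48 to -0.17), and Tcf7 at 0.46 (0.28 to 0.62), both within 1.5-fold. Lef1, in contrast, passed there, from 89.4 CPM (83.5 to 95.6) to 165 CPM (148 to 184), at 0.88 (0.70 to 1.07), and with Sox4 and Myb it made 3 of 7, against 21.2% of tested genes. As no difference was read from Sox4 and Myb, this count leaves Lef1 alone and does not show a share above that of all genes. An iNKT V beta does not mark iNKT cells alone. In BM + Spl 28.9% of Foxp3+ and 39.8% of Cd8b1+ cells with a called V beta used one. NKT1 cells with an iNKT V beta held 187 CPM of Cd4 and 149 CPM of Ccr7 in BM + Spl, against 33.4 and 10.9 CPM in BM only. The makeup of this subset thus also differed, and its part in the Lef1, Satb1 and Tcf7 ratios was not tested. Within BM + Spl the NKT1 cells with another V beta held 75.8 CPM (64.4 to 88.7) of Lef1 and 109 CPM (95.5 to 125) of Satb1. These were the low side for both genes. With Myb, from which no difference was read, 3 of the 6 members tested between these cells passed 1.5-fold, against 14.2% of tested genes. Tcf7 at 240 CPM (219 to 262), in contrast, was above its 183 CPM (165 to 203) in cells with an iNKT V beta. In thinned cells, those with 3 to 4 NKT1 genes numbered 431 in BM only and 390 in BM + Spl, and those with 5 or more 1739 and 204. Over all cells with 5 or more NKT1 genes, whatever their V beta, Lef1 was within 1.5-fold, at 72.8 CPM (57.1 to 91.4) in BM + Spl and 69.5 CPM (64.0 to 75.4) in BM only. With 3 to 4 NKT1 genes it stood at 125 CPM (110 to 141) and 128 CPM (114 to 144). Among cells with 5 or more NKT1 genes and a called V beta, 48.0% in BM + Spl and 95.1% in BM only used an iNKT segment. With 3 to 4 NKT1 genes these shares were 40.4% and 85.8%. The mix differs, so these values do not show whether Lef1 differs in cells with an iNKT V beta. In the NKT1 gate the dissociation genes summed to 2814 CPM in BM only and 1447 CPM in BM + Spl.

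In the NKT17 gate 2 of 7 passed, against 13.6% of tested genes, both lower in BM + Spl. They are Myb and Sox4, and since no difference was read from either, the count is not a result about the members. Myb stood at 22.9 CPM (17.8 to 29.0) in BM only and 7.62 CPM (4.65 to 11.8) in BM + Spl, at -1.59 (-2.39 to -0.85), and Sox4 at 28.5 CPM (22.8 to 35.3) and 16.8 CPM (12.2 to 22.5), at -0.77 (-1.33 to -0.23). Among NKT17 cells with an iNKT V beta, Sox4 was 0.65 (-0.22 to 1.52), the opposite side with an interval that holds 0. This ratio rested on 24 and 25 UMIs, under the UMI minimum, so its side was not read. Sox4 UMIs were seen in 3.32% and 2.43% and Myb UMIs in 3.73% and 0.487% of thinned NKT17 cells of BM only and BM + Spl. These shares lay within the wide counting intervals of B cells given above. In CPM, however, the BM only NKT17 cells stood above B cells of that library without overlap. Those B cells held 3.19 CPM (0.386 to 11.5) of Sox4 and 4.78 CPM (0.986 to 14.0) of Myb. The pDC of BM only, at 31.8 and 24.6 CPM, overlapped the NKT17 cells. No difference was read from either gene at these low levels. The dissociation genes summed to 4135 and 1801 CPM in these cells. Cycling cells, with at least 3 of 10 cell cycle genes, held less Sox4 in BM + Spl at -0.60 (-0.85 to -0.35), the 1 of 7 genes past 1.5-fold, against 6.28% of tested genes. In Foxp3+ cells 2 of 7 passed, against 10% of tested genes, which were Bach2 at 0.91 (0.57 to 1.25) and Itm2a at 0.80 (0.53 to 1.08), both higher in BM + Spl.

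Foxp3+ cells, regulatory T cells by their defining factor, numbered 636 in BM only and 697 in BM + Spl and were at or near the bottom of the T cell gates for most of the genes. Against NKT2 cells 5 of 7 genes passed in BM only and 7 of 7 in BM + Spl, against 35.1% and 34.1% of tested genes. Lef1 stood at 82.1 and 102 CPM, Tcf7 at 100 and 118 CPM and Satb1 at 102 and 97.2 CPM in BM only and BM + Spl, each lower than in NKT2 cells. Bach2 stood at 26.1 CPM in BM only, -0.15 (-0.55 to 0.25) against NKT2 cells, and at 49.0 CPM in BM + Spl, 1.16 (0.88 to 1.44) against them.

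**Figure D3:**
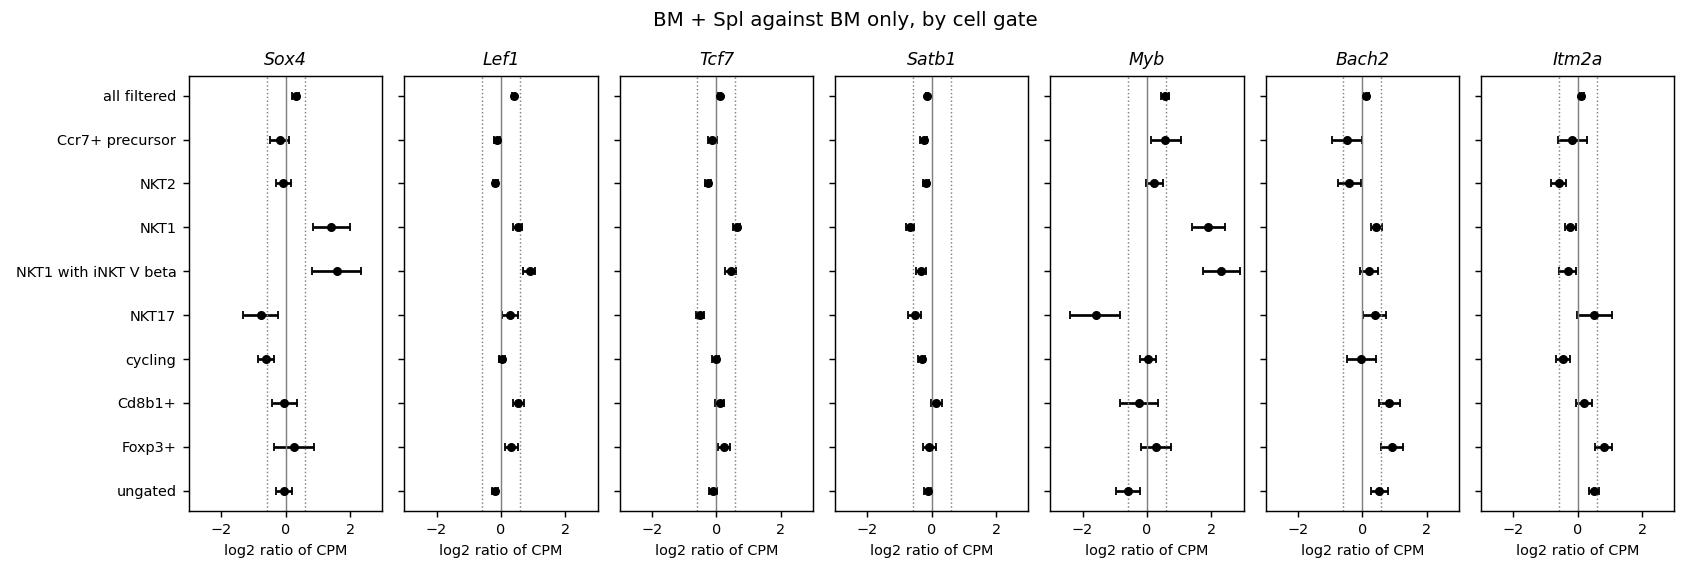
Log2 ratio of CPM, BM + Spl against BM only (horizontal axis), of each gene in 10 groups of cells, with exact 95% intervals of counting error as bars and dotted lines at 1.5-fold. Sox4 and Myb lie right of 0 in the NKT1 gate (1.41 and 1.90) and left of 0 in the NKT17 gate (-0.77 and -1.59), while over all filtered cells every gene lies within 1.5-fold.

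Cd8b1+ cells of BM + Spl were set against NKT2 cells of that library. Of the 7 genes 5 passed 1.5-fold, against 27% of tested genes, beside 4 of 7 against 22.8% in BM only and 2 of 7 against 22.3% in C57BL/6. Bach2 stood at 113 CPM (101 to 126) against 22.0 CPM (18.8 to 25.5), at 2.36 (2.09 to 2.64), and Itm2a at 153 CPM (139 to 168) against 40.7 CPM (36.4 to 45.5), at 1.91 (1.69 to 2.12). Tcf7 was higher at 0.62 (0.52 to 0.72), from 281 to 433 CPM. Without the cells with an immature marker described below, Tcf7 was within 1.5-fold of NKT2 cells. Lef1 at -0.78 (-0.89 to -0.68) and Myb at -1.19 (-1.60 to -0.79) were lower, so here too the Lef1 and Tcf7 paralogs went opposite ways. Between the BMT libraries 1 of 7 passed in Cd8b1+ cells, against 10.6% of tested genes, namely Bach2, which stood at 63.7 CPM (52.0 to 77.2) in BM only and 113 CPM (101 to 126) in BM + Spl, at 0.83 (0.50 to 1.16).

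A small part of the Cd8b1+ cells carried a UMI of Rag1, Rag2, Dntt, Ptcra, Arpp21 or Cd24a, genes of CD4+CD8+ thymocytes, and held more of most of these 7 genes. They were 9 of 74 cells in C57BL/6, 44 of 288 in BM only and 35 of 477 in BM + Spl, with medians of 14903, 1855.5 and 2190 UMIs per cell beside 16290, 4676.5 and 4857 in the other Cd8b1+ cells. Other markers moved with this split, and their part in it was not tested. In C57BL/6 the cycling gene Mki67 stood at 746 against 105 CPM and Cd4 at 13.4 against 54.3 CPM, and in BM only the pDC gene Siglech stood at 162 against 17.5 CPM, where pDC also held Cd8b1, at 387 CPM. The pDC also held the immature markers, at a summed 132 CPM in BM only and in BM + Spl, beside 106 and 38.9 CPM in all Cd8b1+ cells. A UMI of such a marker thus does not by itself show a CD4+CD8+ thymocyte. In Cd8b1+ cells with an immature marker Sox4 stood at 377 CPM (284 to 489), 196 CPM (140 to 267) and 259 CPM (186 to 351), in the order C57BL/6, BM only and BM + Spl. In the other Cd8b1+ cells it stood at 84.4, 37.1 and 43.2 CPM. Tcf7 stood at 800 CPM (663 to 958), 750 CPM (636 to 878) and 1048 CPM (895 to 1221), against 231, 352 and 395 CPM. The 395 CPM of BM + Spl was within 1.5-fold of the 281 CPM in NKT2 cells of that library. Itm2a, induced at positive selection, stood at 329 CPM (244 to 436), 407 CPM (324 to 504) and 347 CPM (262 to 452), against 57.7, 93.8 and 141 CPM, while the Bach2 intervals of both kinds of cells overlapped in C57BL/6 and BM + Spl. Without these cells 3 of 7 genes passed between the BMT libraries, against 10.4% of tested genes, with Lef1 at 0.62 (0.42 to 0.82) and Itm2a at 0.59 (0.30 to 0.88) beside Bach2 at 0.98 (0.62 to 1.34).

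The Cd8b1+ cells with a Cd4 UMI and those without differed in 3 of 6 tested members in C57BL/6 and in BM only and in 2 of 7 in BM + Spl, against 10.5%, 22.9% and 13.1% of tested genes. With and without Cd4, Cd8a stood at 205 and 498 CPM in BM only and at 177 and 999 CPM in BM + Spl. Immature markers summed to 272 and 68.9 CPM in BM only and to 55.8 and 31.1 CPM in BM + Spl. Median depths were 5552.5 and 4486.5 UMIs in BM only and 6373 and 4562 in BM + Spl. The part of these differences in the levels below was not tested. Satb1 stood at 463 CPM (389 to 547) with and 227 CPM (202 to 254) without Cd4 in BM only, and at 416 CPM (374 to 461) and 242 CPM (220 to 265) in BM + Spl. Lef1 followed it, at 366 CPM (300 to 441) and 185 CPM (163 to 210) in BM only and at 404 CPM (363 to 449) and 277 CPM (254 to 302) in BM + Spl. Bach2 was the reverse, at 71.7 CPM (55.1 to 91.8) with and 132 CPM (116 to 150) without Cd4 in BM + Spl. In C57BL/6, where Cd8b1+ cells held little Cd8a, Lef1 was lower with Cd4, at 219 CPM (185 to 257) against 350 CPM (305 to 399).

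**Figure D4:**
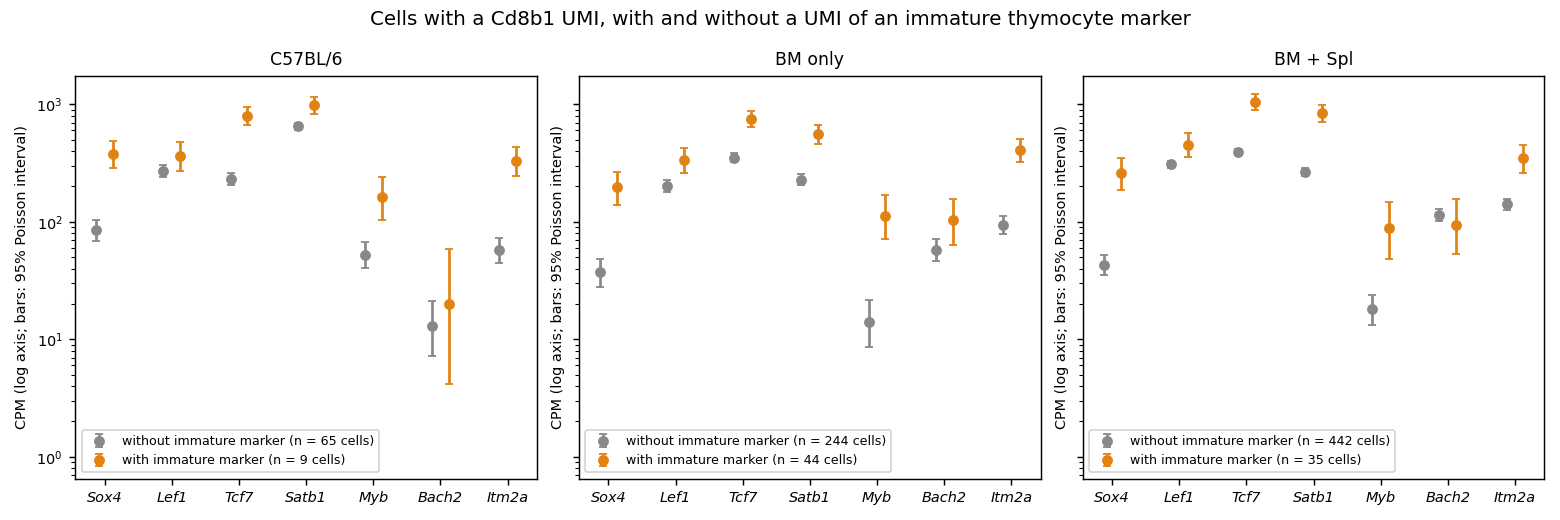
CPM (vertical log axis) of each gene in Cd8b1+ cells with and without a UMI of an immature thymocyte marker, by library, with 95% Poisson intervals as bars. Sox4, Tcf7, Myb and Itm2a are higher in the cells with such a marker in all 3 libraries, and the Bach2 intervals overlap in C57BL/6 and BM + Spl.

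Itm2a was highest, of all gates with at least 50 cells in each library, in the cells that no gate took, at 231 CPM (210 to 253) in C57BL/6, 209 CPM (190 to 229) in BM only and 297 CPM (281 to 315) in BM + Spl. Against NKT2 cells 4, 3 and 5 of the 7 genes passed 1.5-fold in these cells, against 14.4%, 18.6% and 20.7% of tested genes in C57BL/6, BM only and BM + Spl. Most of the Itm2a lay in ungated cells without a Zbtb16 UMI, which held 474 CPM (430 to 522), 255 CPM (232 to 280) and 331 CPM (313 to 351). Those with Zbtb16 held 31.5 CPM (21.8 to 44.0), 12.2 CPM (3.96 to 28.4) and 72.7 CPM (51.7 to 99.4), below the former in each library. In C57BL/6 the ungated cells without Zbtb16 were 113 cells that also held 247 CPM (216 to 282) of Sox4 and 181 CPM (154 to 211) of Myb, with 76.8 CPM of immature markers summed, 5 of 6 of them seen and Rag2 at 0. In BM + Spl ungated cells held 112 CPM (102 to 123) of Bach2, close to the 113 CPM of Cd8b1+ cells, and their intervals overlapped.

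Other genes of the same families were counted from lists. In NKT1 against NKT2 cells the tested SOX relatives were all lower past 1.5-fold, Sox5 at -4.19 (-7.28 to -2.26) from 2 UMIs in C57BL/6 NKT1 cells, -4.02 in BM only and -1.37 in BM + Spl, and Sox13 at -2.25 in C57BL/6 and -3.62 (-5.94 to -2.003) from 3 UMIs in BM + Spl NKT1 cells. Sox13 in BM only was under the UMI minimum. Of 6 listed BACH and MAF partners 5 were tested in C57BL/6, where Bach1 and Prdm1 were higher and Mafg lower, 5 in BM only, where Bach1, Maff and Prdm1 were higher, and 4 in BM + Spl, where none passed. Bach1, the paralog of Bach2, was higher at 1.23 in C57BL/6 and 1.37 in BM only and stood at 0.16 in BM + Spl. Prdm1, which encodes BLIMP-1, was at 4.04 in C57BL/6 and, with 3 UMIs in NKT2 cells, at 3.30 (1.71 to 5.61) in BM only. Tcf7l1 was lower at -1.53 in C57BL/6 and under the minimum in both BMT libraries. Of 5 tested TCF and LEF partners and targets the co-repressor genes Tle4 at 0.62 in C57BL/6 and Tle3 at 0.67 in BM + Spl were higher, and none passed in BM only. Itm2b and Itm2c, the paralogs of Itm2a, were within 1.5-fold in all 3 libraries, and the relatives of Myb and Satb1 were under the minimum. Of 28 listed T lineage factors, 7 of 26 tested were higher and 6 lower in C57BL/6, 10 and 7 of 25 in BM only and 8 and 4 of 26 in BM + Spl. Over all tested genes 12%, 18.6% and 18.7% were higher and 9.9%, 12.8% and 9.67% lower in these libraries. The list holds Tbx21, which is among the NKT1 gate genes, and Zbtb16, which the NKT2 gate required. The gates themselves thus push both genes in their direction, and both are in these counts and medians. The median log2 ratio of the T lineage factors was 0.30, 0.13 and 0.30 in C57BL/6, BM only and BM + Spl, beside 0.02, 0.01 and 0.07 over all tested genes. As examples picked from the T lineage factors past 1.5-fold, Runx3, of the cytotoxic program, was higher at 2.34, 3.46 and 3.24, and Id3 lower at -2.05, -2.996 and -2.55. Of 6 tested naive and egress genes 5 were lower in C57BL/6 and in BM only and 1 in BM + Spl, where the median was 0.19. Ccr7, at -2.41 and -2.82 in C57BL/6 and BM only, stood at 0.26 in BM + Spl, and Themis, at -1.76 and -1.98, stood at 1.14. The Ccr7+ precursor gate took cells with Ccr7 before the NKT2 gate was formed, so the Ccr7 ratio also depends on the gates.

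The genes whose levels ran most like each member over 28 gate and library profiles of at least 50 cells were named among 9873 genes with 500 UMIs, as a description, since profiles share libraries and depth. Lef1 ran with its antisense gene Lef1os1 (Pearson r = 0.96), Supt4a and Art2b, and Tcf7 with Themis, which supports T cell receptor signals in selection (0.93), Abhd8 and Kcnmb4. Sox4 ran with Id3 (0.88), Jup and Pak1, and Myb with Hivep3 (0.87), Cbx6 and Mlec. Satb1 ran with Ablim1 (0.95), Ankrd13b and Aak1, and Bach2 with Tagap (0.89), Casp1 and Bcl6, a repressor that counters BLIMP-1. Itm2a had the loosest companions, led by 9430015G10Rik (0.69), Frat2 and Actn1. Between members r was 0.81 for Sox4 and Myb, 0.80 for Lef1 and Tcf7 and 0.31 for Bach2 and Itm2a, and over the 24 profiles of T cells alone it was 0.78, 0.52 and 0.57.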

How the data were processed

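Cell by gene counts of UMIs were deposited by the authors as 1 filtered matrix per library. The file headers name Cell Ranger 3.0.2 for C57BL/6 and 7.0.0 for BM only and BM + Spl, and the submitters' processing notes list mm10 and Seurat 4.0.2. The study's methods list more than 1 capture kit without giving the kit of each library. Whether doublets were removed before deposit is not given in the sources used here, and no doublet caller was run, so leaving out the 6% of cells with most UMIs in each library was tried instead. The counts were not normalized or batch-corrected before deposit.

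The 7 genes, the gates and the lists of related genes were chosen with earlier results of these data known. All 7 genes are named, and related genes come from fixed lists, with counts and with values for only some of those past 1.5-fold. For each gene the 3 genes with the highest Pearson r of log2 (CPM + 1) over gate profiles are named. UMIs were summed per gate and given as CPM with exact Poisson intervals. Shares carry Clopper-Pearson intervals, and log2 ratios carry exact binomial intervals of the split of UMIs. With 1 library per condition no p-value was computed. Ratios were called past 1.5-fold where both sides together held 50 UMIs. A cell had an iNKT V beta where at least 80% of its V beta UMIs were of those segments. Thinned cells were drawn to 2700 UMIs, which left out 15, 959 and 568 shallower cells of C57BL/6, BM only and BM + Spl. On simulated counts of 11537 genes for 1 comparison, 95.2% of ratio intervals held the true value. Python 3.11.15, numpy 2.4.6, scipy 1.17.1 and pandas 2.3.3 were used. Gene positions come from GENCODE vM21 and start sites from RefSeq (GRCm38.p6), matched by symbol for 7 of 7 genes.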

Additional observations from a re-analysis of the deposited data

Results flagged for a closer look

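Between BM + Spl and BM only, Sox4 and Myb had ratios of opposite sign by gate. Sox4 stood at a log2 ratio of 1.41 in NKT1 cells, -0.77 in NKT17 cells and -0.60 in cycling cells, and Myb at 1.90 in NKT1 cells, -1.59 in NKT17 cells and -0.59 in ungated cells. With 1 library per condition the difference between gates was not tested. At equal depth the NKT1 and NKT17 shares of both genes lay within the wide counting intervals of B cells. In CPM the BM only NKT17 cells stood above B cells for both genes, without overlap. No difference was read from either gene at these low levels. In NKT17 cells with an iNKT V beta the Sox4 ratio was 0.65 (-0.22 to 1.52). That ratio was under the UMI minimum and its interval spans both signs, so it does not show whether the opposition held there. Ungated against NKT2 cells also parted for Myb, at 0.71 in C57BL/6 and -0.61 in BM + Spl, libraries of different software versions whose difference was not tested. Itm2a was at -0.59 in NKT2 cells and at 0.80 in Foxp3+ cells of BM + Spl against BM only, and this difference was not tested either.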

How the results depend on the processing

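No paired analysis was possible because each condition is 1 library. In NKT1 against NKT2 cells 6 of 7 genes were past 1.5-fold in each library, and this count stayed within 1.5 times under every alternative tried, at its lowest 4 in C57BL/6 cells with an iNKT V beta. Between BM + Spl and BM only over all filtered cells, 0 genes became 1 with gates on thinned cells, 3 with values of thinned cells, 1 without the 6% of cells with most UMIs and 2 in cells with an iNKT V beta. In the NKT2 gate 1 gene became 0 with stricter gates, with ratios centred on their median and with means over cells, and Itm2a turned from -0.59 to 0.047 with stricter gates. In the NKT1 gate 4 genes became 2 with values of thinned cells. In Cd8b1+ cells 1 gene became 2 with gates on thinned cells, values of thinned cells, stricter gates, the 6% left out and iNKT V beta cells, and 3 with means over cells and without cells holding an immature marker. For Ccr7+ precursor against NKT2 cells in C57BL/6, 2 genes became 1 with gates on thinned cells, values of thinned cells, stricter gates, centred ratios, the 6% left out and iNKT V beta cells, and Itm2a turned from -0.60 to 0.059 with stricter gates. For Cd8b1+ against NKT2 cells in BM + Spl, 5 genes became 3 in cells with an iNKT V beta. The cause of these shifts was not tested. Leaving out Cd8b1+ cells with an immature marker and an NKT1 gate of 5 or more markers in thinned cells were chosen after seeing the data. With the latter, Lef1 against NKT2 cells was at -2.87, -3.15 and -2.91 in C57BL/6, BM only and BM + Spl, while Sox4 rested on 17 and 8 UMIs and Myb on 7 and 2 UMIs in BM only and BM + Spl. Of 63 ratios rerun, 31 were past 1.5-fold, and these kept their direction under each alternative that gave a value, apart from the 2 of Itm2a named here. Comparisons of NKT17, cycling, Foxp3+ and ungated cells were not rerun under these settings. No library can be left out and mouse to mouse spread is unknown, so intervals bound counting error alone, and a gene seen in only a few percent of thinned cells cannot be told from free RNA at this depth.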
